A study of Homo sapiens with 4 samples.

Results

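The widest shared FOXC1 peaks were 779 regions of the J82 genome in which both replicates of a FOXC1 chromatin immunoprecipitation with sequencing (ChIP-seq) listed a broad peak. Peaks of the replicates that overlapped by at least 1 bp were merged, and 13089 merged regions on chromosomes 1 to 22 and X held exactly 1 peak of each replicate. The widest were chosen by peak width alone, with at least 700 bp required in replicate 1 and in replicate 2. They made up 5.95% of these 13089 regions, and the remaining 12310 served as the comparison. J82 is an established human bladder cancer cell line kept in culture, and all libraries came from it without a further genotype or treatment named. The FOXC1 antibody was D8A6, and 2 biological replicates were immunoprecipitated, with 2 input libraries made without antibody. Reads were single-ended and 75 bp long. The inputs entered the peak calling and are not analysed here on their own, so the replicate error of every peak value rests on 2 libraries of 1 cell line.

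FOXC1 belongs to the forkhead transcription factors. Forkhead proteins bind DNA through a winged-helix domain that reads a short A- and T-rich core sequence, and several family members can bind sites in closed chromatin. In ChIP-seq, fragments held by the protein pile up over its binding site, so the summit of a peak lies near the site and the width is the stretch over which the pileup stays above background. AP-1, a dimer of FOS and JUN proteins, binds a different palindromic sequence and is found at many distal regulatory elements of epithelial cancer cells.

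The sequences at the summits of the widest peaks are shown first, because the comparisons turn on them. The forkhead core was searched as RTAAAYA (R stands for A or G and Y for C or T) and the AP-1 sequence as TGASTCA (S stands for C or G), each on both strands. A longer form, named here the extended CCAA-forkhead element, joins a CCAA sequence to a degenerate forkhead core. All sequences are the plus strand of hg19, and capitals mark matches to the searched sequences. The summit of a region was set midway between the replicate summits. The first set holds 50 bp to either side of the summit in the 5 regions with the largest smaller width, and shows that the broadest peaks did not share a single summit sequence.
ITGB8 intron, chr7:20391672-20391772: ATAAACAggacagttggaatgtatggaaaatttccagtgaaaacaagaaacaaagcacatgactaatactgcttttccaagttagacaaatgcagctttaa
Promoter of a lncRNA on chromosome 6, chr6:4582344-4582444: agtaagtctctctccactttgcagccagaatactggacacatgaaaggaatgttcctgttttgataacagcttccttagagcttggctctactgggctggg
DNM3 intron, chr1:172328305-172328405: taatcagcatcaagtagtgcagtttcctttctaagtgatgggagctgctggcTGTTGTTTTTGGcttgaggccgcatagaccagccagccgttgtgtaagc
CRIM1 intron, chr2:36713949-36714049: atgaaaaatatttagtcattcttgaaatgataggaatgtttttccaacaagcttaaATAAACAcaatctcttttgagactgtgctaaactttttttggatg
DLG2 intron, chr11:84576442-84576542: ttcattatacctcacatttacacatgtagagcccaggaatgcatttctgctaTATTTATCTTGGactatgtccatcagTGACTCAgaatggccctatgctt

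The ITGB8 and CRIM1 windows held a forkhead core, the DNM3 window held the extended element without a core, and the DLG2 window held a core inside the extended element together with an AP-1 sequence. The window of the lncRNA promoter on chromosome 6 held no searched sequence. The second set holds 30 bp to either side of the summit in the 6 regions with the highest mean fold enrichment, with the forkhead core and the extended element in capitals. It is shown because the extended element was present in each of these 6 windows, and a forkhead core, inside the element, only in that of NINL.
ECH1 promoter, chr19:39322614-39322674: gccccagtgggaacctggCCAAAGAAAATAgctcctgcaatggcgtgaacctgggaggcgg
Intergenic on chromosome 6, chr6:156103744-156103804: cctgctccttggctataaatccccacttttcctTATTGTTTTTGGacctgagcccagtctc
ITPR1 intron, chr3:4783483-4783543: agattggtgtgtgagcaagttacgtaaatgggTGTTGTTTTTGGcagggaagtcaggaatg
Intergenic on chromosome X, chrX:40638299-40638359: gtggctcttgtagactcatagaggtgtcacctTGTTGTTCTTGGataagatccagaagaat
NINL intron, chr20:25488847-25488907: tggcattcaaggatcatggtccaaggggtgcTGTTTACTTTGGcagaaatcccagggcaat
ZFHX3 intron, chr16:73054442-73054502: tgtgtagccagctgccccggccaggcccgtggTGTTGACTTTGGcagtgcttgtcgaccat

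The third set holds 50 bp to either side of the summit in the 3 regions with the lowest mean fold enrichment. In these windows the single match was an AP-1 sequence, in the CHN2 intron.
CHN2 intron, chr7:29325186-29325286: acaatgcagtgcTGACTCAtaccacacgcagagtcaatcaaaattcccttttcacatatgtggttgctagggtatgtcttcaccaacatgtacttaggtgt
PEDS1 promoter, chr20:48746987-48747087: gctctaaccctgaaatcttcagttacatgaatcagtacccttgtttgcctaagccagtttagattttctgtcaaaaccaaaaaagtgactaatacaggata
Intergenic near SLC22A23, chr6:3500850-3500950: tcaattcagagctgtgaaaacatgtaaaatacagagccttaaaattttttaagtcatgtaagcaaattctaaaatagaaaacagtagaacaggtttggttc

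The fourth set shows regions with several forkhead cores spread along the peak, with 291 bases around the summit printed and only the forkhead core in capitals. The region in the MAPK9 gene body and the one in the CPED1 intron held 7 and 6 cores within 350 bp of the summit, of which 3 each lie in the printed windows. The cores of the MAPK9 window sit at like places in stretches of sequence that repeat each other. Those of the CPED1 window lie in unlike surroundings.
MAPK9 gene body, chr5:179686194-179686484: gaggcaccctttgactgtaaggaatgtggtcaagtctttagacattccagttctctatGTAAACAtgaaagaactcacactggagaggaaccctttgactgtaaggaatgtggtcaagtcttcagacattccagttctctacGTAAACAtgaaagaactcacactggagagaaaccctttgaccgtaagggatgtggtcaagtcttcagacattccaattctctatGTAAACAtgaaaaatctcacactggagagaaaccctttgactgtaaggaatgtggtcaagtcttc
CPED1 intron, chr7:120661299-120661589: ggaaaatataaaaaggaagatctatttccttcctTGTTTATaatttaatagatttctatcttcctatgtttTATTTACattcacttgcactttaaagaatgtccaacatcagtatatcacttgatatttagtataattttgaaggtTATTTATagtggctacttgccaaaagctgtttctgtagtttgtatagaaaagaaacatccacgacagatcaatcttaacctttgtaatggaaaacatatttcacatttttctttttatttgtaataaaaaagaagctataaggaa

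The 3 strongest regions that were not selected are given with 30 bp to either side of the summit. The first held no searched sequence, the next a forkhead core, and the last a core inside the extended element.
VTI1A intron, chr10:114571776-114571836: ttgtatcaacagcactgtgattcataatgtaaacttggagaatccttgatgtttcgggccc
Intergenic on chromosome 10, chr10:3443758-3443818: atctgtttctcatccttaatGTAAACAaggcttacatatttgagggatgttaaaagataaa
Intergenic on chromosome 15, chr15:90879969-90880029: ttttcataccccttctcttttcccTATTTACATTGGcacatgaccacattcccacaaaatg

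Width itself was what the rule used and is described without a test. Peaks of the 779 regions ranged from 700 to 1803 bp in replicate 1, with a median of 821 bp, and from 700 to 2177 bp in replicate 2, with a median of 913 bp. The other shared regions had median widths of 398 and 518 bp. Replicate 1 held the narrower peak in 578 of the widest regions, replicate 2 in 200, and in 1 region the widths were equal. Only 84 regions reached 1000 bp in both replicates, and 4 reached 1500 bp. Another 203 regions passed 700 bp in replicate 1 alone and 1957 in replicate 2 alone. A further 23 of the 139 shared regions that held several peaks of a replicate had a peak of at least 700 bp in both, and these were left out by the rule. Of all peaks of at least 700 bp on these chromosomes, 19 of 1032 in replicate 1 and 634 of 3479 in replicate 2 had no partner in the other replicate.

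**Figure D1:**
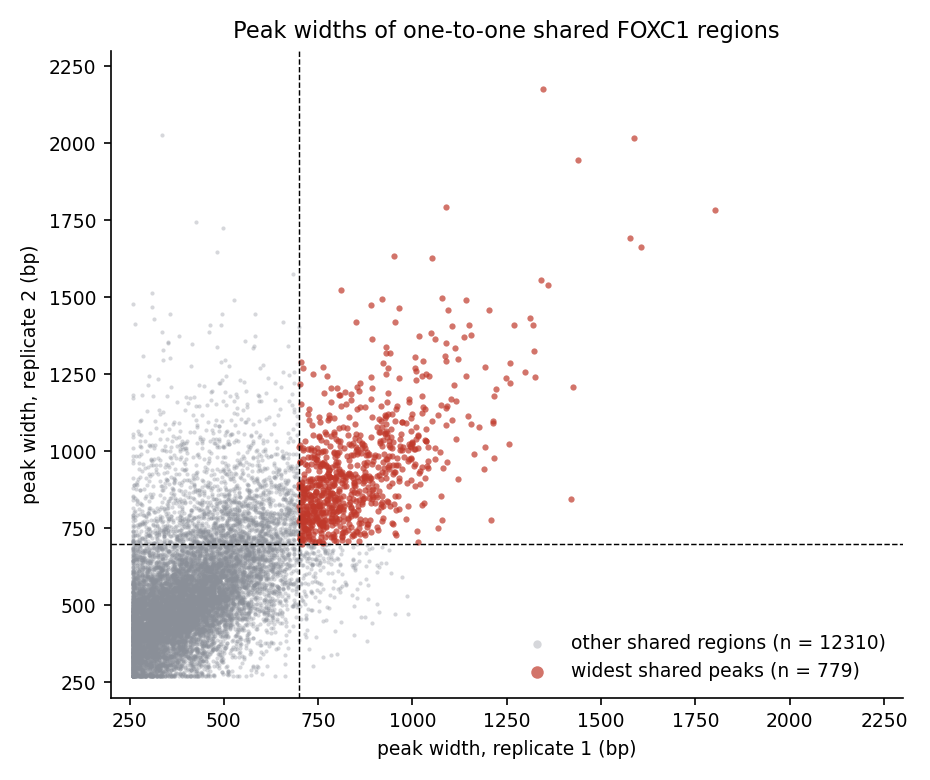
Peak width in replicate 1 (horizontal axis, bp) against replicate 2 (vertical axis, bp) for each of the 13089 one-to-one shared regions, with the selected regions in red, the others in grey and the 700 bp rule as dashed lines. More grey points lie above the horizontal line (1957) than to the right of the vertical line (203), and the red points thin out beyond 1000 bp.

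At the edge of the rule, 6 selected regions had a smaller width of exactly 700 bp, with mean fold enrichments of 14 to 27.9 (median 23.8). The 10 regions with a smaller width of 699 bp had 8.77 to 38.1 (median 14.4). Of those inside, a promoter peak at ERN1, which encodes a sensor of unfolded proteins, was 707 and 700 bp wide, with fold enrichments of 7.57 and 20.4 in the replicates. The ERN1 peak had the lowest mean of the 6. Among the 4 strongest of the 10 outside, the 1 with the mean of 38.1 lies in an intron of the annotated gene KCNS3, which encodes a modulatory potassium channel subunit, and the 1 with 17.7 lies at the promoter of CHI3L2, which encodes a chitinase-like protein.

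The widest peaks were also high at the summit. Fold enrichment, the ratio that MACS2 gives of the pileup over the local background, is described without a test, since it comes from the same peak calls as the width. In the widest regions it ran from 1.93 to 86.0 in replicate 1, with a median of 13.2, and from 3.29 to 94.5 in replicate 2, with a median of 23.5. The medians of the other shared regions were 3.68 and 6.45. Reads over the summit, worked out from the fold enrichment and the −log10 p, had medians of 89 and 169 in the widest regions against 23 and 43 in the others. Replicate 2 had the higher fold enrichment in 747 of the 779 regions (95.9%), with a median ratio of replicate 2 to replicate 1 of 1.78. In the other regions the median ratio was 1.68. The order of the regions by fold enrichment was shared between the replicates, with a Spearman correlation across the 779 regions of 0.913, against 0.710 across the other 12310. These correlations are not like for like. The others covered a narrower range, on fewer reads, with replicate 1 quartiles of 2.94 and 5.15 against 6.97 and 22.3 in the widest. For the widths, whose range the rule cut, the correlation between the replicates was 0.50 in the selected regions.

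Of the 103 regions with a mean fold enrichment of at least 40, 102 were among the widest. The first region that was not came after 96 that were, and the widest supplied 99 of the top 100 and 332 of the top 500 by fold enrichment. Within the selected regions the Spearman correlation of the smaller width with the mean fold enrichment was 0.232. It is not set beside that of the other regions, since the rule cut on this width and so limits its range. The widest regions spanned both weak and strong summits, with 415 under a mean fold enrichment of 20 and 364 at or above it. Of the others, 12068 were under 20 and 242 at or above it. The lowest mean fold enrichment among the widest was 2.78, and 36 regions had a −log10 q under 5 in replicate 1, 1 in replicate 2, and 742 at least 5 in both.

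**Figure D2:**
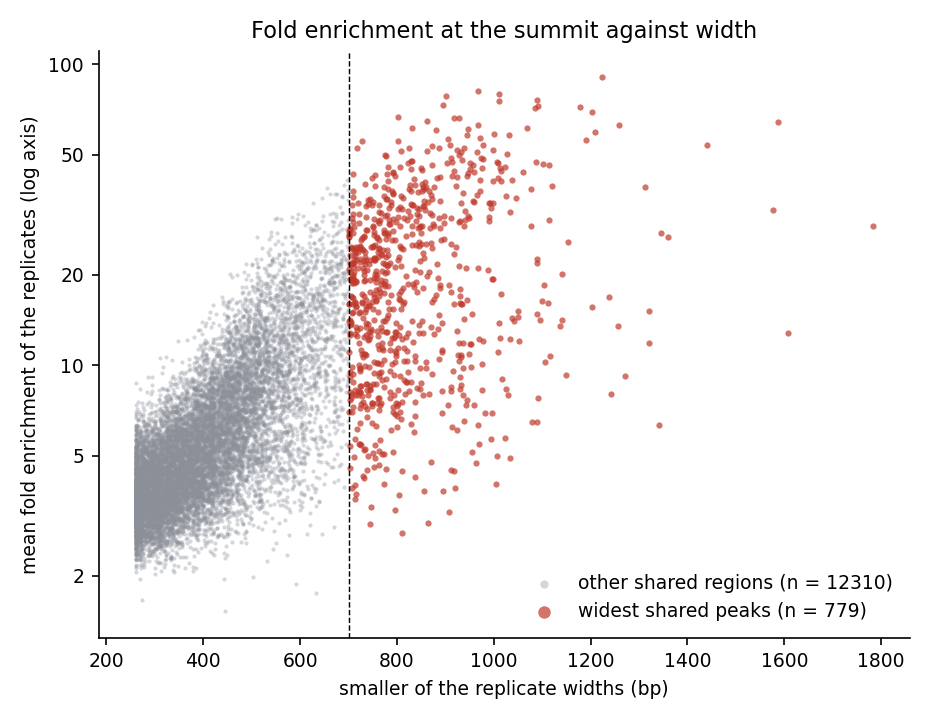
Mean fold enrichment of the replicates (vertical axis, logarithmic) against the smaller of the replicate widths (horizontal axis, bp), with the selected regions in red, the others in grey and the 700 bp rule dashed. To the right of the line the red points spread from 2.78 to 90.3.

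The replicate summits lay close together. Their distance had a median of 8 bp in the widest regions and 29 bp in the others. It was at most 50 bp in 673 of the 779 regions (86.4%) and in 67.7% of the others. Among the widest, this share was 98.4% at a fold enrichment of 20 or more and 75.9% under 20, where 32 regions had summits over 150 bp apart. The summit was also less central in the weaker regions. Its median distance from the middle of the replicate 1 peak was 121 bp under a fold enrichment of 20 and 44 bp at 20 or more, and in replicate 2 it was 108 and 39.2 bp (medians).

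The 12 regions with the largest smaller width lay mostly in introns. The broadest, chr7:20391283-20393130, was 1803 bp wide in replicate 1 and 1783 bp in replicate 2, in an intron of ITGB8, which encodes an integrin beta subunit. Its fold enrichment was 19.6 in replicate 1 and 38.2 in replicate 2 (mean 28.9 ± 13.2, SD, n = 2). A region in the promoter of a lncRNA, chr6:4581589-4583250, followed with widths of 1607 and 1662 bp and lower fold enrichments of 8.14 and 17.5. Width and height also parted in an intron of NALCN, which encodes a sodium leak channel. That region, chr13:101960938-101962494, was 1341 and 1557 bp wide at fold enrichments of 4.81 and 7.88. The strongest of the 12, chr1:172327227-172329243 in an intron of DNM3, a dynamin gene of membrane fission, was 1586 and 2017 bp wide and had fold enrichments of 57.4 and 71.0. A peak in DLG2, which encodes a synaptic scaffold protein, reached 44.7 and 63.0 at widths of 1440 and 1944 bp. In CRIM1, which encodes a transmembrane regulator of bone morphogenetic proteins, the widths were 1577 and 1693 bp and the fold enrichments 24.9 and 40.9.

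Other regions of the 12 lay far from coding genes or beside them. A peak on chromosome 15, chr15:67340973-67342405, lay 14221 bp from the nearest start site of SMAD3, a signal transducer of the TGF-beta pathway, with fold enrichments of 25.6 and 52.3. A peak on chromosome 13 lay between genes, 63812 bp from the nearest start site of KLF5, which encodes a zinc finger transcription factor of epithelial cells, with fold enrichments of 11.4 and 18.9. The region with the largest replicate 2 width, 2177 bp, lay in a lncRNA on chromosome 12 and was 1346 bp wide in replicate 1. Its fold enrichments of 14.1 and 40.7 differed more, as a ratio, than those of the rest of the 12.

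The 6 regions with the highest mean fold enrichment were 901 bp wide or more in both replicates. The highest, chr19:39322041-39323317, was 163 bp away from a start of ECH1, a gene for an enzyme of fatty acid oxidation, with fold enrichments of 86.0 and 94.5. The next, between genes on chromosome 6, reached 73.6 and 89.4. Peaks in introns of ITPR1, which encodes an intracellular calcium release channel, NINL and ZFHX3, a zinc finger and homeobox gene, had mean fold enrichments of 79.6, 76.0 and 75.6. At the other end, the 6 weakest regions had mean fold enrichments of 2.78 to 3.40 although their widths were 745 bp or more. The weakest, in an intron of CHN2, which encodes a GTPase-activating protein, rested on 13 reads over the summit in replicate 1 and 40 in replicate 2. The weakest at a promoter were at PEDS1 (2.15 and 3.78) and UBAC2 (2.88 and 3.75). The strongest region that was not selected, in an intron of VTI1A, had fold enrichments of 30 and 52.3 at widths of 696 and 727 bp.

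The question for the sequence comparison was whether the widest peaks differ from the other shared peaks in what lies at the summit. The sequence and the gene annotation were not used by the width rule, and shares were compared with two-sided Fisher's exact tests over regions, adjusted by Benjamini-Hochberg over 15 measures. Regions of 1 cell line are not replicates, so these p-values and all 95% intervals (Wilson for a share, Newcombe for a difference) cover the counting of regions only. Within 50 bp of the summit, 346 of 779 widest regions (44.4%, 95% interval 41.0 to 47.9) and 6027 of 12310 others (49.0%) held a forkhead core, against 48.7% of all 13089. The difference of −4.54 percentage points (−8.11 to −0.927) had an exact p of 0.0147 and did not pass the adjustment (0.110). AP-1 was found at 18.4% of the widest and 16.5% of the other summits, against 16.6% of all, a difference of 1.87 points (−0.780 to 4.81, exact p = 0.180, adjusted 0.450). From 50 to 350 bp, 54.6% of the widest, 52.5% of the others and 52.6% of all regions held a forkhead core (exact p = 0.283, adjusted 0.607).

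None of the 15 measures passed the adjusted threshold, and 3 had an unadjusted exact p under 0.05. The other sequences searched within 50 bp of the summit differed little in share. TEAD (RCATTCC), the partner of the coactivator YAP, was at 7.70% of the widest and 6.18% of the others (difference −0.208 to 3.65 points, 95% interval). RUNX (TGTGGTT) was at 6.03% and 5.45%, GATA (WGATAA, W is A or T) at 17.6% and 16.6%, and NF-Y (CCAAT), which can overlap the extended element, at 14.5% and 14.0%. C/EBP (TTGCNNAA) was at 8.73% and 8.50%, SP/KLF (GGGCGG) at 1.54% and 1.93%, and ETS (CCGGAAG) at 0.513% and 0.520%. Within 100 bp, where no test was made, TEAD was at 14.4% and 11.4% (difference 0.653 to 5.71 points, 95% interval). The intervals of the other sequences named here spanned both signs in that window. A GC share of at least 50% within 150 bp of the summit was found in 12.6% of both groups. At a control position 2000 bp downstream, the forkhead core was in 10.7% of the widest and 11.0% of the others, and AP-1 in 1.41% and 1.62%.

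The widest regions were stronger, and among the other regions the share with a core at the summit was 44.4% under a fold enrichment of 5 and 57.2% at 10 to 20. A logistic fit took the log2 mean fold enrichment as a covariate. The log odds of a core within 50 bp were then lower in the widest regions (−0.616 ± 0.0852, SE, Wald p of 4.78e-13). Each such Wald p was adjusted singly, in place of the Fisher p of its measure among the 15. The adjusted Wald p was here 7.17e-12. For AP-1 at the summit the same fit gave −0.400 ± 0.110 (SE, adjusted Wald p of 0.00420), the opposite sign to the plain share. For a core at 50 to 350 bp it gave 0.348 ± 0.0843 (SE, adjusted Wald p of 0.000558). Among regions with a fold enrichment of at least 10 in both replicates, the difference for the core within 50 bp was −9.73 points (adjusted exact p = 0.0183). With a window of 25 bp it was 0.174 points. With the width rule and the summit taken from replicate 1 alone, among the same one-to-one shared regions, it was 1.12 points. Both were of the opposite sign. Where the replicate summits lay at most 50 bp apart it was −7.62 points (adjusted exact p = 0.00234).

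The extended element was read earlier from the strongest peaks of these lists, so its shares are a description without a test. Within 50 bp of the summit it was in 148 of 779 widest regions (19.0%, 16.4 to 21.9) and in 6.55% of the others, against 7.29% of all. In 96 of these 148 regions no forkhead core lay within 50 bp. Regions with the element and no core made up 12.3% of the widest and 3.79% of the others, against 4.29% of all. A core, an AP-1 sequence or the element was in 65.6% of the widest and 61.5% of the others, a difference of 4.05 points (0.542 to 7.42). By fold enrichment, the element was in 4.03% of the widest and 7.13% of the others at 5 to 10. It was in 11.6% and 11.6% at 10 to 20, and in 23.3% and 22% at 20 to 40. At 40 or more, where 102 of 103 regions were among the widest, 54 of the 102 (52.9%, 43.3 to 62.3) held the element and 38 (37.3%) a forkhead core. Under a fold enrichment of 5, the element was in 0 of 34 widest regions, with a 95% Wilson interval up to 10.2%, and in 4.33% of the others. Within 50 bp of the control position 2000 bp downstream it was in 0.513% of the widest and 0.544% of the others.

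Sequences along the peaks were also compared within bands of strength. The 2 bands, under and at or above a mean fold enrichment of 20, and the window of 150 to 350 bp from the summit were chosen after the data were seen. Fisher's exact tests in the bands were adjusted over 8 tests. The smaller of the replicate widths had a median of 800 bp in the widest regions and 386 bp in the others. The window of 150 to 350 bp thus lay mostly inside the peak in the widest, and in many of the others mostly outside it. Comparisons there therefore set sequence inside peaks in part against sequence outside them. In the window of 150 to 350 bp, over all strengths, 41.1% of the widest and 36.2% of the others held a forkhead core, against 36.5% of all 13089. AP-1 was in 15.4% and 10.6%, against 10.9% of all. Under a fold enrichment of 20, the forkhead core was in 205 of 415 widest regions (49.4%, 44.6 to 54.2) and in 4384 of 12068 others (36.3%). The difference was 13.1 points (8.21 to 17.9, exact p = 1.10e-07, adjusted 6.05e-07). AP-1 was in 81 of the 415 (19.5%, 16.0 to 23.6) and in 10.6% of the others, a difference of 8.87 points (5.30 to 13.0, exact p = 1.51e-07, adjusted 6.05e-07).

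A sequence of the same bases also differed in this window. The reversed consensus AYAAATR, searched in the same window as a control, was in 48.4% of the widest and 42.2% of the other regions under a fold enrichment of 20, a difference of 6.27 points (1.42 to 11.2). The median GC share within 150 bp of the summit was 39.5% in these widest regions and 40.2% in the others. Within 50 bp of the control position 2000 bp downstream, the forkhead core was in 11.6% and 11.0%. That control window is shorter than the one of 150 to 350 bp on both sides. Its shares are therefore not to be set beside the 49.4% and 36.3% found there. The part of base composition in the forkhead difference was not tested. Where the replicate summits lay at most 50 bp apart, the differences in the window were 12.4 points for the forkhead core and 8.4 points for AP-1. The width rule and the summit were also taken from 1 replicate alone, among the same one-to-one shared regions. The forkhead difference was then 8.38 points without replicate 1 and 9.0 without replicate 2. The AP-1 difference was 6.37 points without replicate 1 and 3.04 without replicate 2 (exact p = 0.0137).

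At a fold enrichment of 20 or more, the widest and the other regions did not pass the test in that window. The forkhead core was in 31.6% of the 364 widest and 29.8% of the 242 others (difference −5.73 to 9.17 points, exact p = 0.654, adjusted 0.748), and AP-1 in 10.7% and 9.09% (−3.49 to 6.31 points, exact p = 0.582, adjusted 0.748). Within 50 bp of the summit the core was less frequent in the widest, at 43.4% against 54.1%, a difference of −10.7 points (−18.7 to −2.60, exact p = 0.0102, adjusted 0.0271). This band is not matched for strength, since 102 widest regions but 1 other reached a fold enrichment of 40. At 20 to 40, where no test was made, the shares were 45.8% (39.9 to 51.9) and 54.4% (48.0 to 60.5), with overlapping intervals. Under 20 the shares were 45.3% and 48.9% (exact p = 0.162, adjusted 0.324), and the interaction of the bands for this window had a Wald p of 0.139 (adjusted 0.185). Without replicate 1 the summit difference at 20 or more was −5.80 points and no longer passed (exact p = 0.108), and without replicate 2 it was −20.1. It turned to 0.367 points at a minimum width of 600 bp and to 3.70 at 1000 bp. Whether the bands differ was tested with an interaction term. The unadjusted Wald p was 0.0288 for the forkhead core and 0.0865 for AP-1 at 150 to 350 bp, and neither passed after adjustment over 4 terms (0.115 and 0.173), so a difference between the bands was not shown.

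**Figure D3:**
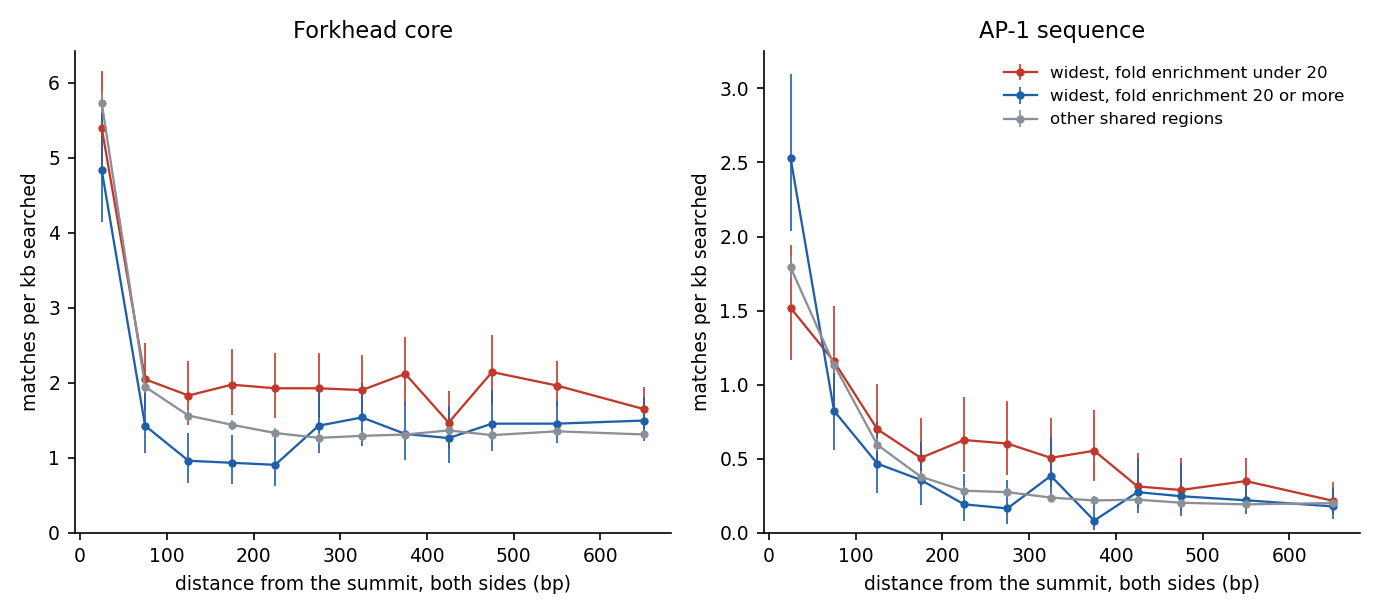
Matches per kb searched (vertical axes) by distance from the summit on both sides (horizontal axes, bp) for the forkhead core on the left and AP-1 on the right, in the widest regions under a fold enrichment of 20 (red), the widest at 20 or more (blue) and the other regions (grey), with exact 95% Poisson intervals as bars. The red line for the forkhead core stays near 1.9 matches per kb from 150 to 350 bp, where the grey line falls from 1.44 to 1.29.

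Read as a density along the peak, the forkhead core in the widest regions under a fold enrichment of 20 fell from 5.40 matches per kb within 50 bp of the summit to 1.98 at 150 to 200 bp and 1.90 at 300 to 350 bp. In the other regions it fell from 5.73 to 1.44 and 1.29. At 600 to 700 bp the densities were 1.65 (1.39 to 1.95) and 1.31 (1.27 to 1.36). The widest regions at a fold enrichment of 20 or more had 4.84 matches per kb at the summit, 0.934 at 150 to 200 bp and 1.54 at 300 to 350 bp. AP-1 in these strong regions was at 2.53 matches per kb within 50 bp (2.04 to 3.10), against 1.52 in the weaker widest regions and 1.79 in the others. The others in this density are of all strengths. As a share of regions at a fold enrichment of 20 or more, AP-1 within 50 bp was in 23.4% of the widest and 22.7% of the others (Fisher's exact p = 0.922, adjusted 0.922). At 150 to 200 bp the strong, weaker and other regions had 0.357, 0.506 and 0.379 AP-1 matches per kb, and at 300 to 350 bp 0.385, 0.506 and 0.238.

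In finer bands of fold enrichment, given as a description, the forkhead core at 150 to 350 bp was in 49.0% of the widest and 35.2% of the others at 5 to 10, and in 50.9% and 35.2% at 10 to 20. At 20 to 40 the shares were 29.8% and 29.5%. AP-1 in that window was in 11 of 34 widest regions under a fold enrichment of 5 (32.4%, 19.1 to 49.2), 22.1% at 5 to 10, 15.9% at 10 to 20 and 10.3% at 20 to 40. In the others it lay between 9.13% and 11.2% in these 4 bands. At 40 or more, where 1 other region was left, the window held AP-1 in 11.8% and the forkhead core in 36.3% of the 102 widest. At the summit, the widest regions had a lower share of forkhead cores than the others in each of these 4 bands. It was 20.6% against 44.4% under 5, on 7 of 34 widest regions (10.3 to 36.8), and 45.8% against 54.4% at 20 to 40.

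**Figure D4:**
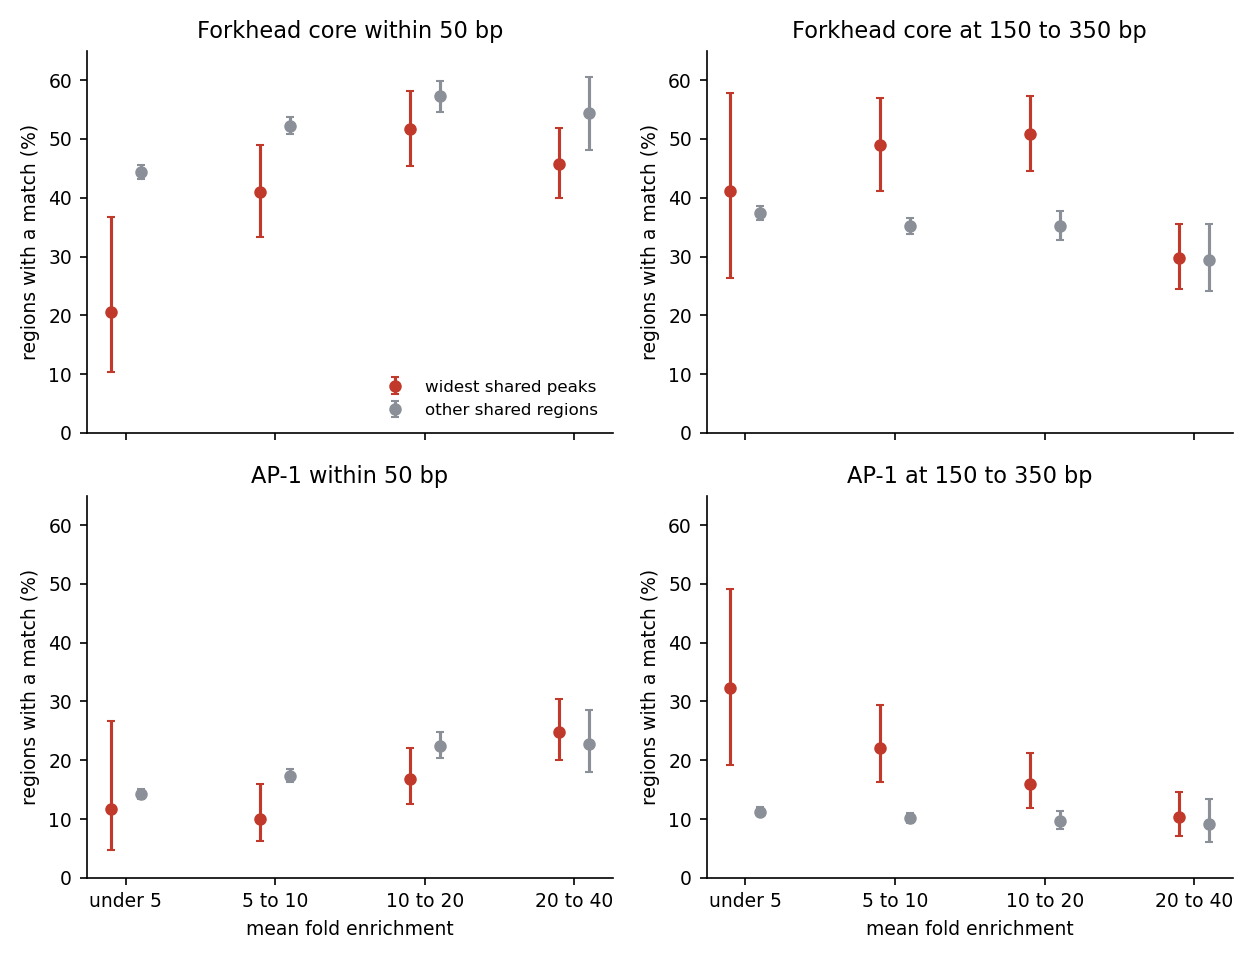
Share of regions with a match (vertical axes, %) in 4 bands of mean fold enrichment (horizontal axes) for the forkhead core and AP-1 within 50 bp and at 150 to 350 bp of the summit, in the widest regions (red) and the others (grey), with 95% Wilson intervals. At 150 to 350 bp the red points lie above the grey ones at 5 to 10 and 10 to 20 with intervals apart, and beside them at 20 to 40.

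A peak usually reaches further on 1 side of its summit than on the other, which allows a comparison within each region. In 537 of the widest regions the longer side was the same in both replicates. The window of 150 to 350 bp on the longer side held a forkhead core in 28.5% of these regions and that on the shorter side in 18.8%. A core on the longer side alone was found in 116 regions and on the shorter side alone in 64 (exact McNemar test, two-sided, p = 0.000130, adjusted over 4 tests 0.000174). AP-1 was on the longer side in 10.8% and on the shorter side in 6.89%, with 56 and 35 regions on 1 side alone (exact p = 0.0354, adjusted 0.0354). Side lengths come from the peak calls and the sequences do not, and the comparison was chosen after the data were seen. The longer side can hold more of this window inside the peak than the shorter side.

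The side difference was not particular to the widest peaks in direction. In 6309 other regions the forkhead core was on the longer side in 22.3% and on the shorter in 19.1% (exact McNemar p = 5.98e-06, adjusted 1.20e-05). AP-1 was on these sides in 7.40% and 3.99%, a difference of 3.41 points (exact McNemar p = 2.04e-16, adjusted 8.16e-16). Whether the sizes of these differences differ from those of the widest regions was not tested. Without replicate 2 the forkhead difference of 9.68 points between the sides was 4.29 (exact p = 0.0283), and without replicate 1 it was 6.49. The AP-1 difference of 3.91 points was 1.94 without replicate 2 (exact p = 0.113) and 5.09 without replicate 1. For the AP-1 sequence the call was also lost where the summits lay at most 50 bp apart (3.81 points, exact p = 0.0535).

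**Figure D5:**
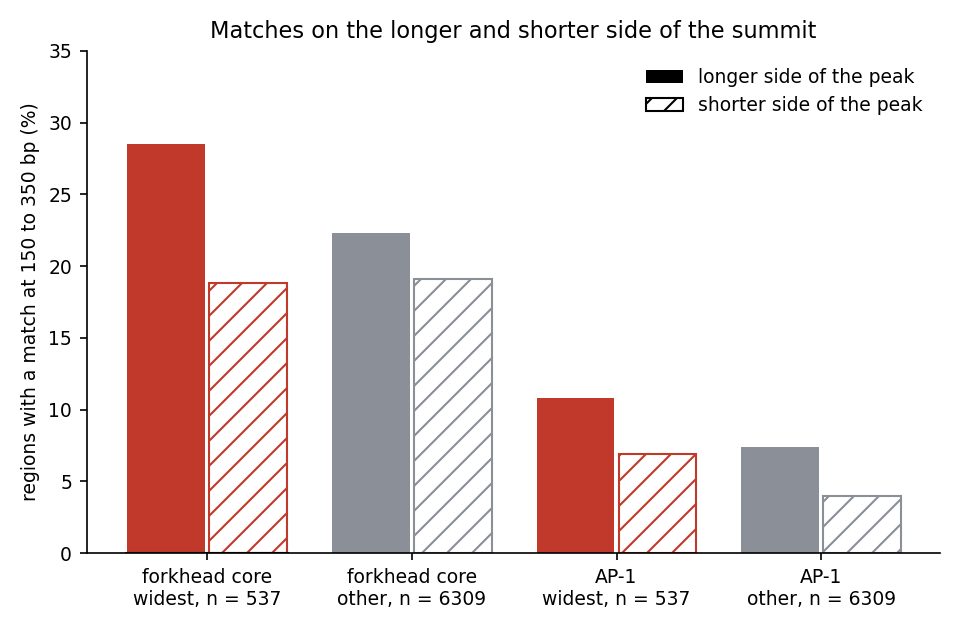
Share of regions with a match at 150 to 350 bp from the summit (vertical axis, %) on the longer side (filled bars) and the shorter side (hatched bars) of the peak, for the forkhead core and AP-1 in 537 widest (red) and 6309 other regions (grey) whose longer side was the same in both replicates. The filled bar is the taller in each pair, by 9.68 points for the forkhead core in the widest regions.

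The widest peaks were placed in the genome much like the others. Their summits lay within 2 kb of an annotated transcript start in 138 regions (17.7%, 15.2 to 20.6), against 20.2% of the others and 20% of all, a difference of −2.46 points (−5.08 to 0.459, exact p = 0.0968, adjusted 0.290). Introns outside promoters held 52.9% of all the widest and 48.0% of all the others. This difference of 4.86 points did not pass the adjustment (1.24 to 8.45, exact p = 0.00867, adjusted 0.110). Exons held 1.41% and 2.58% (exact p = 0.0438, adjusted 0.219), and 28.0% and 29.2% were intergenic (exact p = 0.490, adjusted 0.684). The median distance to a protein-coding start site was 26552 bp for the widest and 24942 bp for the others. The next one-to-one shared region lay a median of 30156 bp away from the widest and 41132 bp away from the others. By chromosome, the widest made up from 2.65% of the shared regions on chromosome 21 (3 of 113, 0.907 to 7.52) to 9.04% on chromosome 15 (30 of 332, 6.4 to 12.6).

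Summits of 412 widest regions (52.9%) lay within the body of a protein-coding gene, near the 51.8% of the others. These were spread over 390 genes, of which 357 held 1, 32 held 2 and 1 held 3, with a summit in overlapping genes counted for each. The gene with 3 was DNM3, in which 10 shared regions lay in all. Its widest peaks were chr1:172123433-172124568, with fold enrichments of 11.0 and 21.3, chr1:172291288-172292573, with 50.4 and 53.2, and chr1:172327227-172329243, described above. The strong pair lay closer to the start sites of PIGC, a gene of glycosylphosphatidylinositol anchor synthesis, than to those of other coding genes, at 58255 and 21691 bp. Genes with 2 of the widest regions included MITF, which encodes a basic helix-loop-helix transcription factor, FBN1, which encodes fibrillin, CDK6, a cell cycle kinase gene, NRP1, which encodes a receptor of semaphorins, and LIFR, a cytokine receptor gene. These 5 were picked from the 32 after their counts were seen.

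Gene lists of pathways studied in bladder cancer held few of the widest peaks. A region was counted for a gene when its summit lay in the gene body or within 10 kb of it. Of 15 YAP and TEAD pathway genes, 11 had any one-to-one shared region and 2 had one of the widest, which gave 3 of 33 regions (9.09%, against 5.95% of all). AMOTL1, which encodes an angiomotin that binds YAP, held 2 in introns, with fold enrichments of 12 and 20 at chr11:94470183-94471469 and 20.3 and 39.8 at chr11:94479852-94481014. ANKRD1, a YAP target gene, had a promoter peak with 23.5 and 31.7. In the forkhead list, 2 of 21 genes had one of the widest peaks, or 2 of 47 regions (4.26%). FOXP1 had a peak at a promoter, 1213 and 1099 bp wide, with 10.5 and 22.3, among 18 shared regions at the gene. FOXP2 had an intronic peak with 29.8 and 36.2.

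The remaining lists gave 1 region or none each. ABCG2, the only 1 of 9 ABC drug efflux genes with a widest peak (1 of 15 regions, 6.67%), had it in an intron, 720 and 797 bp wide, with fold enrichments of 20.3 and 48.9. IGF1R, among 14 receptor kinase genes (1 of 19 regions, 5.26%), had a promoter peak with 26.6 and 51.7. LPP, among 17 focal adhesion and actin genes (1 of 50 regions, 2%), had an intronic peak with a lower 8.76 and 8.78, among 16 shared regions. None of 11 AP-1 subunit genes and none of 12 TGF-beta pathway genes had one of the widest peaks, although 3 and 9 of them had a shared region (4 and 25 regions). No test was made of these counts, and the numbers of regions are too small to set any list apart from the 5.95% of all regions.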

How the data were processed

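FOXC1 ChIP-seq peak lists of 2 biological replicates from J82 cells were analysed. Per the study's methods, the authors mapped reads to hg19 with bwa and called peaks against input with MACS2 2.2.7.1, and 1 list per replicate was analysed here. An irreproducible discovery rate step of the study gave its own reproducible set, which was not used here, so the shared regions need not match it. The cutoff behind the lists is not given in the sources used here. The other shared regions reached down to a −log10 p of 2.04 in replicate 1 and 2.05 in replicate 2. Peak widths depend on the cutoff, and so does what the width rule selects. The input libraries were not analysed here. The deposited score was the −log10 p times 10, truncated. The deposited fold enrichment is a ratio of pileup to local background, each with 1 added, and the −log10 p and −log10 q deposited by the authors describe the same pileup at the summit. Whole reads over the summit were recovered here from the fold enrichment and −log10 p for 100% of the peaks (residual under 0.001). These recovered reads are the depth behind each peak value, and they cover counting error only.

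Peaks overlapping by at least 1 bp were merged with Python 3.11.15 (numpy 2.4.6, scipy 1.17.1, pandas 2.3.3, pysam 0.24.0, matplotlib 3.10.9). Groups and replicate numbers came from the sample titles. Gene positions were from GENCODE 44 mapped to GRCh37, the assembly of hg19, and the study's version was not used here. Sequences were counted when all their letters lay in the window, on both strands. A category was assigned in the order promoter, exon, intron, intergenic. Shares were compared with Fisher's exact test, sides of a peak with the exact McNemar test, and covariates with logistic regression, each adjusted by Benjamini-Hochberg within its family. The Wald p of a fit with fold enrichment took the place of the Fisher p of its measure in that family. The code was tested on simulated data.

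The members, lists and tests were chosen with earlier results of these data known. Regions named were the 12 widest, the 6 weakest, the 6 strongest that were not selected, 4 on each side of the width rule (of ties, the weakest inside and the strongest outside; all ties are summarised), the 5 with most forkhead cores and genes holding 3 or more. The 6 strongest of the widest and the genes holding 2 were added later. Alternatives of the width, overlap, q, window, consensus, distance, annotation and replicates are given in the closing section.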

Additional observations from a re-analysis of the deposited data

Results flagged for a closer look

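Peaks of at least 700 bp were also listed outside chromosomes 1 to 22 and X, which no comparison used. There were 4 in replicate 1 and 9 in replicate 2, of 54 and 82 listed peaks there. All 4 in replicate 1 and 5 in replicate 2 lay on the unplaced contig gl000220, and 1 in replicate 2 on chromosome Y. The widest peak of the replicate 1 list, at 2778 bp, was among them, whereas the widest on the chromosomes used was 1803 bp. Its fold enrichment was 1.34, and the widest replicate 2 peak outside the chromosomes used, at 1711 bp, had 1.33. Each of these is below the lowest fold enrichment of the selected regions (1.93 in replicate 1 and 3.29 in replicate 2). Wide peaks made up 7.41% and 11.0% of the peaks outside and 4.61% and 8.33% of those on the chromosomes used.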

How the results depend on the processing

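No paired analysis was possible because the comparisons are between regions of 2 ChIP libraries, and the inputs that share their replicate numbers have no peak list here. Values are differences in percentage points, the widest minus the others, unless named otherwise. The number of regions was 1566, 390 and 84 at 600, 800 and 1000 bp, and 982 to 2736 with 1 replicate left out. Leaving 1 replicate out meant that the width rule and the summit came from the other alone. The regions were still one-to-one shared ones, so each held a peak of both replicates. The forkhead core at the summit passed the threshold at −5.80 with reciprocal overlap of at least 50%, −7.91 at a −log10 q of at least 5, −9.73 at a fold enrichment of at least 10, −6.32 at 100 bp, −7.62 with summits at most 50 bp apart and −0.616 log odds in the logistic fit. It was 0.174 at 25 bp and 1.22 for the reversed consensus, and −2.58 to 1.12 with 1 replicate left out. In the band of 20 or more it was 0.367 at 600 bp, 3.70 at 1000 bp and 5.33 for the reversed consensus, and −20.1 to −5.80 with 1 replicate left out. The core in the flank was −3.85 at 1000 bp and −3.60 at 50 to 150 bp. It passed at 0.348 log odds and, at 4.45, without replicate 1, and with 1 replicate left out it was 0.993 to 4.45. AP-1 at the summit passed at 3.48 (600 bp) and 6.15 (800 bp), and turned to −0.391 (−log10 q of at least 5), −0.874 (fold enrichment of at least 10) and −0.400 log odds. The promoter share was 0.207 at 1000 bp, 0.802 at a fold enrichment of at least 10 and −1.82 to 0.0619 with 1 replicate left out.

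At 150 to 350 bp under a fold enrichment of 20, the forkhead difference of 12 at 1000 bp no longer passed, on fewer regions. Between the sides of the peak it was 8.98, and no longer passed, where they differed by at least 200 bp. The AP-1 difference between the sides no longer passed at 4.94 (100 bp), 4.79 (200 bp) and 3.81 (summits at most 50 bp apart), and was 1.94 to 5.09 with 1 replicate left out. Of 97 alternative values, 62 stayed on the same side of the threshold in the same direction (counts within 1.5 times). The 97 include the reversed consensus, which is a control and not another setting. At 150 to 350 bp under a fold enrichment of 20 its difference of 6.27 points is counted among the 62, although it does not speak for stability. The causes were not tested. The bands, the sides, the close summits and the reversed consensus at 150 to 350 bp were chosen after seeing the data. Depth limits the weak regions most, where 34 of the widest lay under a fold enrichment of 5.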
